A study of Mus musculus with 12 samples.

Results

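The genes described here are 7 receptors of the TIM-3, LAG-3 and TIGIT families: Havcr2 (TIM-3), Lag3 (LAG-3), Tigit (TIGIT), Cd226 (DNAM-1), Cd96, Cd160 and Cd244 (2B4). They were taken by symbol from the 24062 genes of the deposited count table, and all 7 were among the 13509 genes kept for testing. Cd244 reached the count minimum of the filter in tumour libraries only, so its presence among the tested genes already reflects a higher count there.

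Messenger RNA of sorted CD4+ T cells of C57BL/6 mice was sequenced in 12 libraries, 2 for each of 6 groups. Tumour Treg and tumour Tconv were GFP-positive regulatory and GFP-negative conventional T cells from the tumours of mice 3 weeks after tail vein injection of 500000 TC-1 cells, a mouse epithelial tumour line. TB spleen Treg and TB spleen Tconv came from the spleens of such tumour-bearing (TB) mice, and normal spleen Treg and normal spleen Tconv from spleens of mice without tumours. The labels give neither the GFP allele nor whether the 2 libraries of a group came from different mice, so p-values measure the spread between these libraries, which may be technical. T cells of a tumour-free organ other than spleen were not analysed here, so tumour and organ of origin cannot be told apart.

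Many of these receptors restrain T cells and natural killer (NK) cells. TIM-3 binds galectin-9, CEACAM1, HMGB1 and phosphatidylserine, and LAG-3, a relative of CD4, binds peptide-loaded MHC class II. TIGIT, CD96 and CD226 compete for the nectin family ligand CD155, encoded by Pvr. TIGIT inhibits, CD226 costimulates, and CD96 has been given either role. CD160 binds HVEM, encoded by Tnfrsf14, and 2B4 binds CD48 and signals through the adaptor SAP, encoded by Sh2d1a. On Treg, TIM-3, LAG-3 and TIGIT are known as features of activated, strongly suppressive cells.

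Libraries held 18624132 to 24111546 counts. Foxp3, the lineage factor of Treg, stood at 989 to 1246 CPM (counts scaled to library size) in the 6 Treg libraries and at 11.5 to 19.6 CPM in the 6 Tconv libraries, which fits the labels. All 6 T cell and sort markers had counts in every group. Transcripts of other cells were present in tumour libraries: 12 macrophage and monocyte markers summed to 298 to 403 CPM in tumour Treg and 192 to 476 CPM in tumour Tconv, against 7.94 to 22.1 CPM in the spleen libraries. The 5 fibroblast markers summed to 395 to 415 CPM in tumour Treg and 212 to 519 CPM in tumour Tconv, and to at most 1.86 CPM in spleen. In such bulk samples, fewer cells of a type and less RNA per cell cannot be told apart.

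In mm10, 6 of the genes lie at chr11:46454935-46481255 on the plus strand (Havcr2, 7 exonic segments), chr6:124904361-124911705 on the minus strand (Lag3), chr16:43648867-43664146 on the minus strand (Tigit), chr16:46035657-46120251 on the minus strand (Cd96), chr3:96798763-96829351 on the minus strand (Cd160) and chr1:171559193-171609746 on the plus strand (Cd244, named Cd244a in the GENCODE annotation). Cd160 shares 68 exonic bases with Pdzk1 on the opposite strand. The promoters of 3 receptors are shown because Havcr2 and Tigit were higher and Cd160 lower in tumour cells of both types. They are RefSeq sequences of GRCm38.p6, from 250 bases before to 50 bases after the start site, at chr11:46454681-46454980 (plus), chr16:43664135-43664434 (minus) and chr3:96829302-96829601 (minus, 1 of 2 Cd160 start sites listed). Capitals mark every match, on either strand, to TGANTCA (AP-1), TGTGGT (RUNX) or TGTTTNC (forkhead).
Havcr2: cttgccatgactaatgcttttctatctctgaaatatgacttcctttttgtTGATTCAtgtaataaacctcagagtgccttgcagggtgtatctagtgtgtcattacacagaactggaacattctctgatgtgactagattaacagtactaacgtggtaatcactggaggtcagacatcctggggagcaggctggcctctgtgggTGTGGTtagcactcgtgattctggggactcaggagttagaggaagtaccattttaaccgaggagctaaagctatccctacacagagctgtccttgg
Tigit: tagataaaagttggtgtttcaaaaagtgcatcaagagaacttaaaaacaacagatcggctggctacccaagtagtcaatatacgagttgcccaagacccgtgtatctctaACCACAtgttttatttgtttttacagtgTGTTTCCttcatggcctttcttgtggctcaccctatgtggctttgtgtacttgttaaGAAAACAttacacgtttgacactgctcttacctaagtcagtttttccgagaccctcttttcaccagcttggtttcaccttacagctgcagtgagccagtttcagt
Cd160: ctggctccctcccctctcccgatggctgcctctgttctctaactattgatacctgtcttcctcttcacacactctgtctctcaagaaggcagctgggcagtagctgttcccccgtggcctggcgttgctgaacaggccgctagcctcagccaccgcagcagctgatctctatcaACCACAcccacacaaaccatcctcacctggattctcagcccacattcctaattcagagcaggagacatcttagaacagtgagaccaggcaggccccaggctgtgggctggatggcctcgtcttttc

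The Havcr2 promoter held 1 AP-1 match, beginning at base -200 relative to the start site, and 1 RUNX match at -46. The Tigit promoter held 1 RUNX match at -140 and 2 forkhead matches at -112 and -55, and no AP-1 match lay in this window. The Cd160 promoter held 1 RUNX match at -76 and neither of the other motifs. No matches overlapped. Of 32851 promoters of this length, 7.81% held the AP-1 letters, 16.8% the RUNX letters and 20.5% the forkhead letters, so these matches are common and are given as a description only.

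Havcr2, the gene of TIM-3, was largely a transcript of tumour Treg. It stood at 126.2 and 139.4 CPM in tumour Treg, against 6.50 and 11.17 CPM in TB spleen Treg and 3.22 and 4.54 CPM in normal spleen Treg. Tconv had less at each site: 3.27 and 4.13 CPM in tumour Tconv, 0.469 and 0.898 CPM in TB spleen Tconv, and 0.153 and 0.286 CPM in normal spleen Tconv. Both tumour Treg libraries lay above all 10 others, and in the order of group means only normal spleen Treg and tumour Tconv overlapped as neighbours. Raw counts in spleen Tconv were low, 9 and 20 in TB mice and 3 and 6 in normal mice.

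Tumour Treg held 15.1-fold more Havcr2 than TB spleen Treg, a log2 fold change of 3.91 ± 0.21 (SE; edgeR quasi-likelihood test, adjusted p = 2.52e-08). Tumour Tconv held 5.31-fold more than TB spleen Tconv, 2.41 ± 0.41 on the log2 scale (adjusted p = 0.000385). The difference between these 2 changes, 1.5 ± 0.54, did not pass the threshold of 0.05 (adjusted p = 0.0592), although DESeq2 called it (adjusted p = 0.00341), as did fits with no filter, without tumour Tconv replicate 2 or without TB spleen Treg replicate 2 (adjusted p = 0.0265, 0.047 and 0.00915). Within the tumour, Treg exceeded Tconv 35.6-fold (5.15 ± 0.23, adjusted p = 3.06e-09). Macrophages and dendritic cells can also make TIM-3. Summed macrophage markers were higher in tumour than in spleen and overlapped between tumour Treg and tumour Tconv. The 7 dendritic cell markers did not overlap, summing to 36.1 to 39.5 CPM in tumour Treg and 10.9 to 18.4 CPM in tumour Tconv, with 2 of 5 tested called higher and 1 lower in tumour Treg. The part of either cell type in the Havcr2 values of tumour Treg and tumour Tconv was not tested.

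In spleen, Treg exceeded Tconv 12.5-fold in TB mice and 17.0-fold in normal mice (3.65 ± 0.35 and 4.09 ± 0.51 on the log2 scale, adjusted p = 3.74e-06 and 3.72e-05). TB spleen Treg held 2.28-fold more Havcr2 than normal spleen Treg (1.19 ± 0.25, adjusted p = 0.00808). This call was lost without TB spleen Treg replicate 2 (0.75, adjusted p = 0.0878) and without normal spleen Treg replicate 1 (0.95, adjusted p = 0.0802). TB spleen Tconv did not differ from normal spleen Tconv beyond the threshold (1.63 ± 0.74, adjusted p = 0.159). DESeq2 called that difference (adjusted p = 0.0318).

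**Figure D1:**
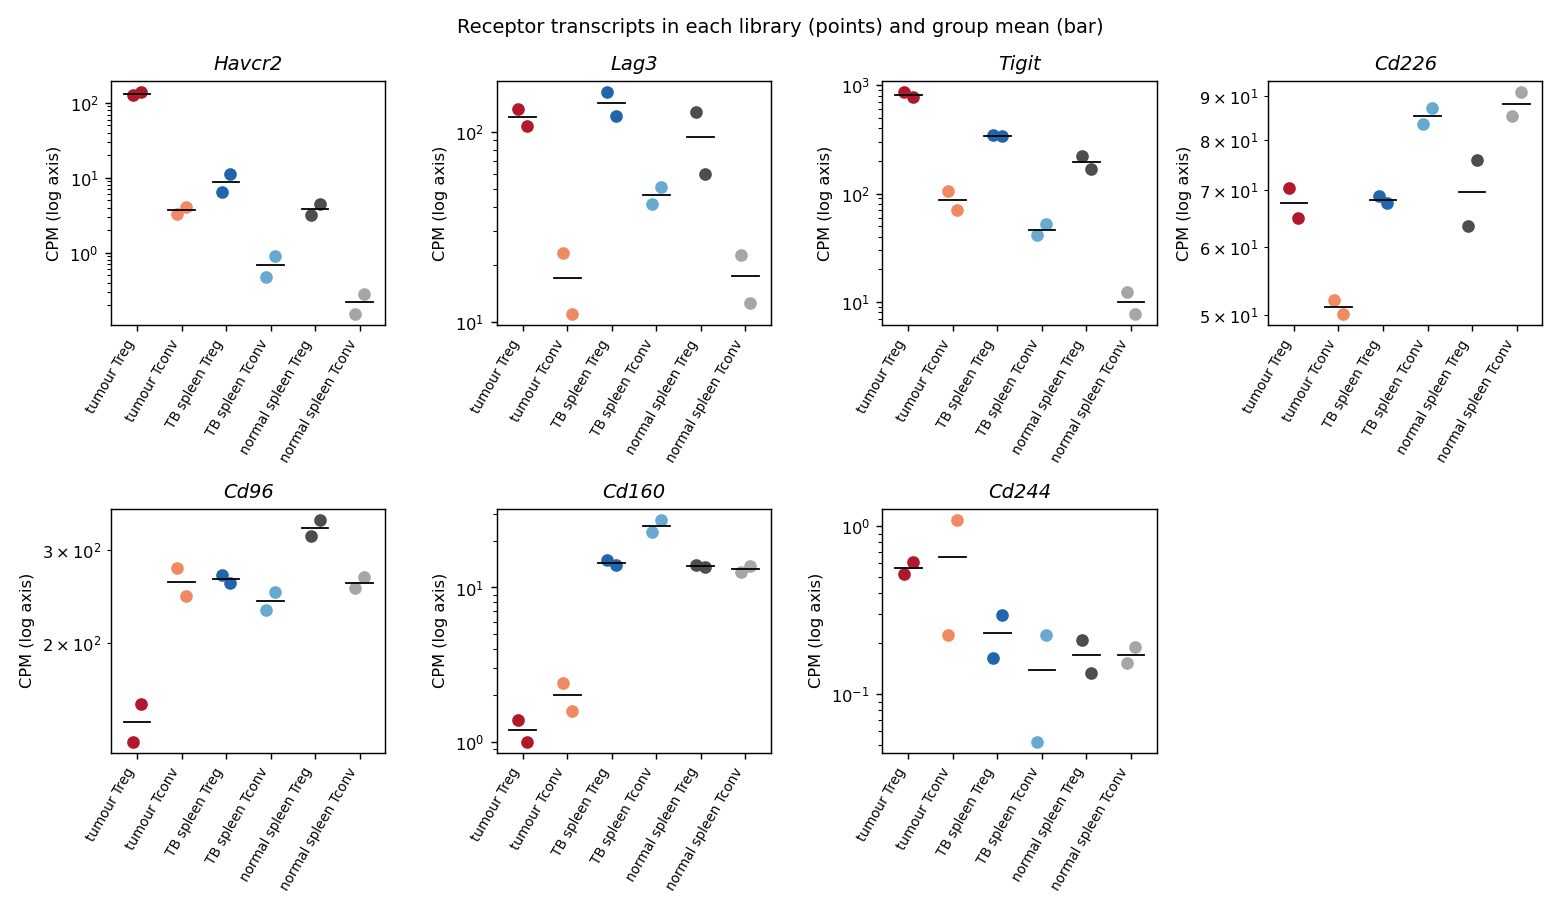
TMM-scaled CPM of the 7 receptors on log axes, 1 panel a gene, with 1 point a library and a bar at the mean of the 2 libraries of each group. Havcr2 reaches 126.2 and 139.4 CPM in tumour Treg and Cd160 drops to 1.20 CPM there on average, while Cd226 stays between 50.1 and 91.0 CPM in all 12 libraries.

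Lag3 followed cell type more than site. It stood at 130.8 and 107.2 CPM in tumour Treg, 161.3 and 121.2 CPM in TB spleen Treg, and 127.5 and 59.87 CPM in normal spleen Treg. In Tconv it stood at 22.95 and 11.02 CPM in tumour, 41.74 and 51.02 CPM in TB spleen, and 22.42 and 12.63 CPM in normal spleen. The 3 Treg groups overlapped as neighbours in the order of means, with normal spleen Treg the most spread, and the 6 Treg libraries all lay above the 6 Tconv libraries.

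Treg exceeded Tconv 7.12-fold in tumour (2.83 ± 0.38, adjusted p = 4.33e-05), 3.04-fold in TB spleen (1.60 ± 0.35, adjusted p = 0.00245) and 5.37-fold in normal spleen (2.43 ± 0.38, adjusted p = 0.000228). Without normal spleen Treg replicate 1 the last of these was 1.78 on the log2 scale. Lag3 did not differ between tumour Treg and TB spleen Treg beyond the threshold (-0.25 ± 0.33, adjusted p = 0.531). In Tconv it was 2.78-fold lower in tumour than in TB spleen (-1.48 ± 0.39, adjusted p = 0.00728). With single libraries left out this change ran from -2.06, without tumour Tconv replicate 1, to -1.03. The call was lost without TB spleen Tconv replicate 2 and with a robust fit (adjusted p = 0.0551). TB spleen Tconv held 2.66-fold more Lag3 than normal spleen Tconv (1.41 ± 0.38, adjusted p = 0.0256). That call was lost without either TB spleen Tconv library or normal spleen Tconv replicate 2 (adjusted p = 0.0726 to 0.219) and with a robust fit (adjusted p = 0.118). Lag3 in TB spleen Treg against normal spleen Treg was not called (0.59 ± 0.33, adjusted p = 0.255), and the site change did not differ between Treg and Tconv beyond the threshold (1.23 ± 0.51, adjusted p = 0.0994). Without tumour Tconv replicate 1 that difference was called (1.80, adjusted p = 0.0158), as it was with no filter (adjusted p = 0.0363).

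Tigit was graded over all 6 groups. It stood at 864.8 and 771.8 CPM in tumour Treg, 346.9 and 337.7 CPM in TB spleen Treg, and 220.3 and 167.1 CPM in normal spleen Treg. In Tconv it stood at 104.6 and 69.9 CPM in tumour, 40.96 and 51.78 CPM in TB spleen, and 12.23 and 7.72 CPM in normal spleen. No 2 neighbouring groups in this order overlapped, and each cell type ran tumour, TB spleen, normal spleen.

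Tigit rose in the tumour in both cell types, 2.39-fold in tumour Treg over TB spleen Treg (1.26 ± 0.19, adjusted p = 0.000119) and 1.87-fold in tumour Tconv over TB spleen Tconv (0.91 ± 0.20, adjusted p = 0.0028). The difference between these changes was not called (0.35 ± 0.28, adjusted p = 0.395). TB spleen Tconv held 4.67-fold more than normal spleen Tconv (2.22 ± 0.24, adjusted p = 0.000114). TB spleen Treg held 1.77-fold more than normal spleen Treg (0.82 ± 0.19, adjusted p = 0.0138), a call lost without either TB spleen Treg library (adjusted p = 0.072 and 0.068) or normal spleen Treg replicate 2 (adjusted p = 0.157) and with a robust fit (adjusted p = 0.0506). The change with tumour in spleen was smaller in Treg than in Tconv by 1.40 ± 0.31 on the log2 scale, which was not called (-1.40, adjusted p = 0.0628). A fit of the 4 spleen groups alone called it (adjusted p = 0.0025), as did fits with no filter (adjusted p = 0.00332) or without either tumour Tconv library (adjusted p = 0.00573 and 0.00521). Treg exceeded Tconv 9.40-fold in tumour, 7.37-fold in TB spleen and 19.5-fold in normal spleen, each with an adjusted p of at most 3.09e-07.

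Cd226, the costimulatory receptor that shares ligands with TIGIT, varied least. It stood at 70.35 and 64.88 CPM in tumour Treg, 68.84 and 67.46 CPM in TB spleen Treg, and 63.45 and 75.80 CPM in normal spleen Treg. Tconv had 52.05 and 50.12 CPM in tumour, 83.48 and 87.10 CPM in TB spleen, and 85.34 and 91.01 CPM in normal spleen. The Treg groups overlapped, both spleen Tconv groups overlapped above them, and tumour Tconv lay below all other libraries.

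Cd226 fell 1.67-fold in tumour Tconv relative to TB spleen Tconv (-0.74 ± 0.09, adjusted p = 2.14e-05) and did not pass the threshold in tumour Treg against TB spleen Treg (-0.01 ± 0.08, adjusted p = 0.916). The 2 changes differed by 0.73 ± 0.12 on the log2 scale (adjusted p = 0.00113). Treg held more Cd226 than Tconv in tumour (0.40 ± 0.09, adjusted p = 0.00149) and less in TB spleen (-0.32 ± 0.08, adjusted p = 0.00786) and normal spleen (-0.34 ± 0.08, adjusted p = 0.00576). The spleen calls were lost when single libraries were left out: TB spleen Treg replicate 2 or TB spleen Tconv replicate 2 for TB mice (adjusted p = 0.0523 and 0.0531), and normal spleen Treg replicate 1 or normal spleen Tconv replicate 2 for normal mice (adjusted p = 0.0861 and 0.0559).

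Cd96 moved in the other cell type. It stood at 130.3 and 153.5 CPM in tumour Treg, 269.5 and 259.5 CPM in TB spleen Treg, and 318.8 and 342.4 CPM in normal spleen Treg. Tconv had 277.3 and 246.0 CPM in tumour, 231.6 and 249.9 CPM in TB spleen, and 254.2 and 266.9 CPM in normal spleen. Both tumour Treg libraries lay below all 10 others and both normal spleen Treg libraries above them, and the Tconv groups lay close together.

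Cd96 fell 1.86-fold in tumour Treg relative to TB spleen Treg (-0.90 ± 0.09, adjusted p = 3.97e-06), while tumour Tconv against TB spleen Tconv was not called (0.12 ± 0.09, adjusted p = 0.282). The difference between the changes was -1.02 ± 0.12 (adjusted p = 0.000149). Treg held less Cd96 than Tconv in tumour (-0.88 ± 0.09, adjusted p = 3.43e-06) and more in normal spleen (0.34 ± 0.09, adjusted p = 0.00718). The normal spleen call was lost without normal spleen Treg replicate 2 (adjusted p = 0.0668) or normal spleen Tconv replicate 1 (adjusted p = 0.0657). TB spleen Treg held less than normal spleen Treg (-0.32 ± 0.09, adjusted p = 0.0276), and leaving out any 1 of those 4 libraries (adjusted p = 0.0629 to 0.203) or scaling by library size (adjusted p = 0.0574) lost that call.

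Levels of the 3 receptors that share CD155 were compared per length, as CPM per kilobase of exon (RPKM). The ratio of Tigit to Cd226 RPKM was 65.4 and 63.3 in tumour Treg, 26.8 and 26.6 in TB spleen Treg, and 18.5 and 11.7 in normal spleen Treg. It was 10.7 and 7.42 in tumour Tconv, 2.61 and 3.16 in TB spleen Tconv, and 0.763 and 0.452 in normal spleen Tconv. The order of groups was that of Tigit itself, with no overlap between neighbours, and Cd226 RPKM exceeded Tigit RPKM in normal spleen Tconv only.

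On the log2 scale the ratio averaged 6.01 ± 0.03 in tumour Treg, 3.16 ± 0.37 in tumour Tconv, 4.74 ± 0.01 in TB spleen Treg, 1.52 ± 0.20 in TB spleen Tconv, 3.88 ± 0.46 in normal spleen Treg and -0.77 ± 0.53 in normal spleen Tconv (SD, n = 2 each). The ratio of Tigit to Cd96 RPKM was 15.8 and 11.9 in tumour Treg, against 3.06 and 3.09 in TB spleen Treg and 1.64 and 1.16 in normal spleen Treg. All 6 Tconv libraries lay below 1, at 0.897 and 0.675 in tumour, 0.42 and 0.493 in TB spleen, and 0.114 and 0.0688 in normal spleen. The size of such ratios depends on the exon lengths taken from GENCODE, 919 bases for Tigit, 4891 for Cd226 and 2184 for Cd96, and the sources used here do not name the annotation behind the counts. Comparisons of 1 ratio between libraries do not depend on them.

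**Figure D2:**
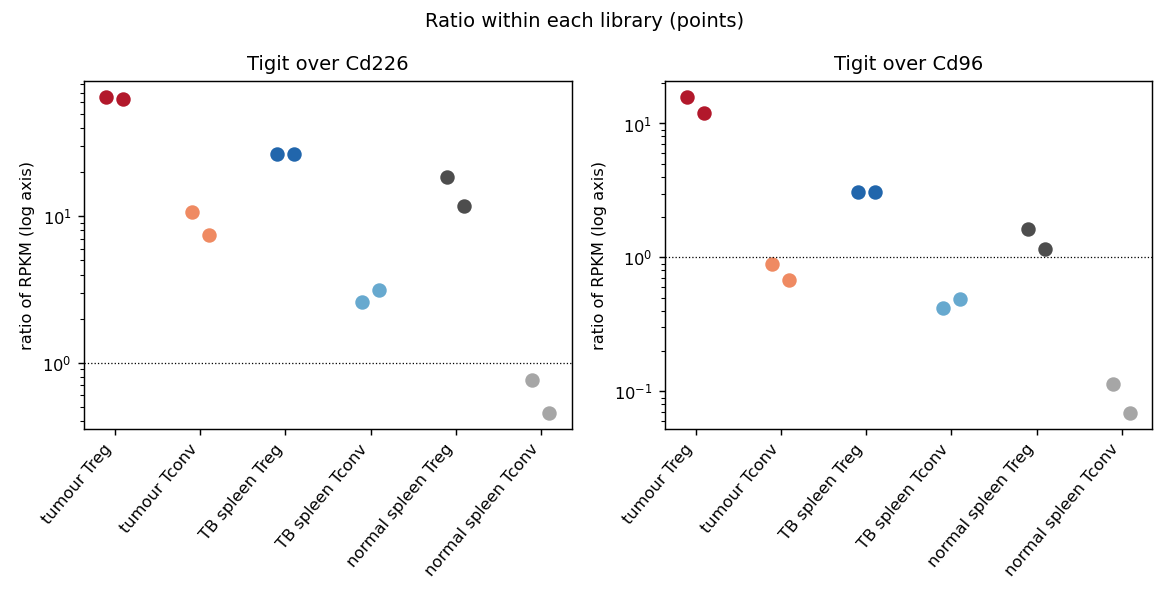
Ratio of Tigit to Cd226 RPKM (left) and of Tigit to Cd96 RPKM (right) in each library, on log axes, with groups along the horizontal axis and a dotted line at equal RPKM. The Tigit to Cd226 ratio runs between 65.4 in a tumour Treg library and 0.452 in a normal spleen Tconv library.

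As a share of the summed RPKM of the 7 receptors, Tigit made up 82.8 ± 1.31% in tumour Treg, 39.9 ± 4.39% in tumour Tconv, 63.9 ± 1.31% in TB spleen Treg, 23.96 ± 1.77% in TB spleen Tconv, 49.1 ± 3.37% in normal spleen Treg and 6.71 ± 2.08% in normal spleen Tconv (SD, n = 2 each). Cd96 made up 6.08 ± 1.09% in tumour Treg, its lowest share, and 73.8 ± 3.23% in normal spleen Tconv, its highest. Havcr2 reached 4.56 ± 0.613% in tumour Treg and stayed under 1% elsewhere. The summed RPKM was 1075 ± 69.4 in tumour Treg, 583.2 ± 23.0 in TB spleen Treg and 427.5 ± 53.9 in normal spleen Treg, against 235.5 ± 41.0 in tumour Tconv, 209.9 ± 19.3 in TB spleen Tconv and 161.6 ± 1.52 in normal spleen Tconv.

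**Figure D3:**
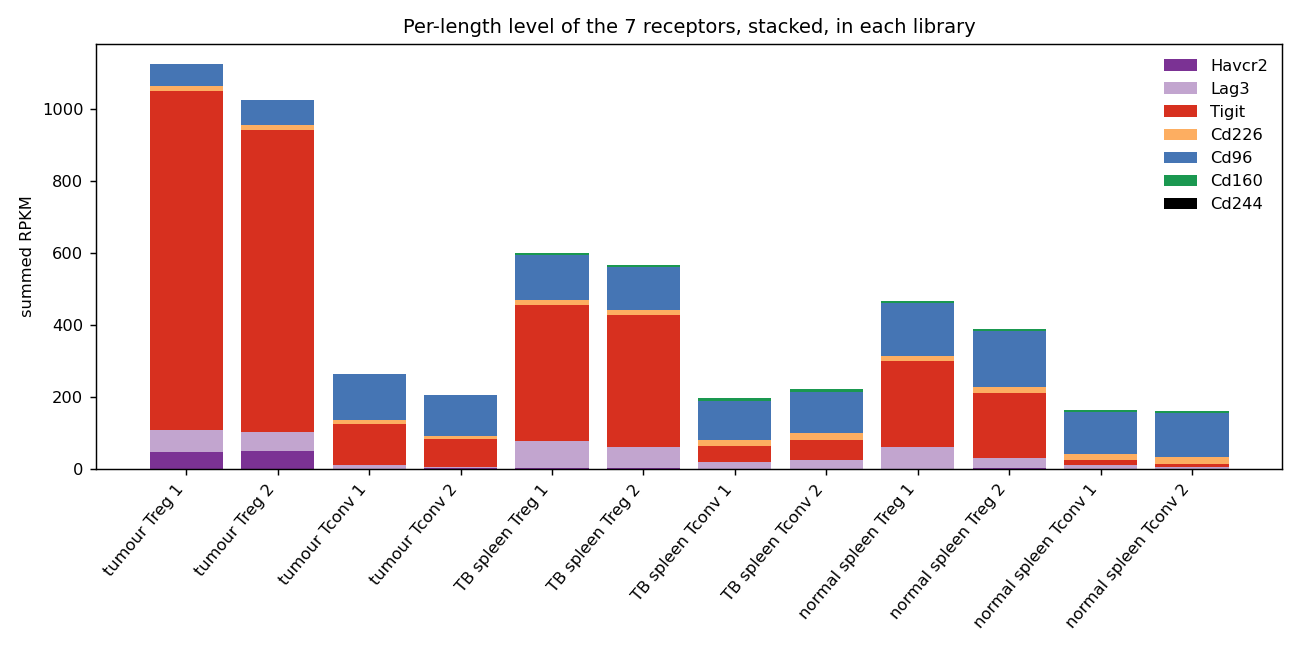
Summed RPKM of the 7 receptors in each library, stacked by gene, with Treg to the left of Tconv at each site. Tigit fills most of the bar in all Treg libraries of TB mice, and Cd96 fills most of it in the Tconv libraries of both spleens.

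Cd160, a receptor of NK cells and some T cells that binds HVEM, was a spleen transcript in these cells. It stood at 1.39 and 1.01 CPM in tumour Treg, against 14.96 and 13.92 CPM in TB spleen Treg and 13.89 and 13.58 CPM in normal spleen Treg. Tconv had 2.43 and 1.59 CPM in tumour, 22.77 and 27.42 CPM in TB spleen, and 12.69 and 13.68 CPM in normal spleen. The 4 tumour libraries, with 23 to 43 counts each, lay below all 8 spleen libraries, and TB spleen Tconv lay above the rest.

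Cd160 was 12-fold lower in tumour Treg than in TB spleen Treg (-3.59 ± 0.21, adjusted p = 4.88e-08) and 12.7-fold lower in tumour Tconv than in TB spleen Tconv (-3.66 ± 0.19, adjusted p = 2.95e-08). These changes did not differ beyond the threshold (0.08 ± 0.31, adjusted p = 0.903). Treg held less than Tconv in TB spleen (-0.80 ± 0.15, adjusted p = 0.0011) and in tumour (-0.72 ± 0.26, adjusted p = 0.0319). The tumour call was lost without tumour Treg replicate 2 (-0.50, adjusted p = 0.19), without tumour Tconv replicate 1 (-0.43, adjusted p = 0.261) with limma-voom (adjusted p = 0.131) and with only these groups fitted (adjusted p = 0.224). TB spleen Tconv held 1.90-fold more Cd160 than normal spleen Tconv (0.93 ± 0.16, adjusted p = 0.00199). The change with tumour in spleen was not called as different between Treg and Tconv (-0.86 ± 0.22, adjusted p = 0.135), but was without either tumour Tconv library (adjusted p = 0.0226 and 0.0219) and with the spleen groups fitted alone (adjusted p = 0.00651).

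The summed NK cell markers were lower in tumour than in TB spleen in both cell types, as Cd160 was, with Klrb1c the 1 marker called of 3 tested. The 6 NK cell markers summed to 0.477 to 1.14 CPM in tumour Treg and 6.70 to 6.77 CPM in TB spleen Treg. They summed to 4.17 to 8.89 CPM in tumour Tconv, 44.7 to 76.4 CPM in TB spleen Tconv and 20 to 21.9 CPM in normal spleen Tconv, with 2 of 6 at 0 counts in both libraries of each of these groups. Nearly all of the sum was Klrb1c (NK1.1), at 42.73 and 73.10 CPM in TB spleen Tconv and 20.94 and 19.07 CPM in normal spleen Tconv. Ncr1, the NK receptor NKp46, was at 0.208 and 0.673 CPM in TB spleen Tconv. Zbtb16, the factor PLZF of NKT cells, was at 10.58 and 19.52 CPM in TB spleen Tconv and 5.91 and 6.34 CPM in normal spleen Tconv. The 3 NKT and gamma delta T cell markers measured, Zbtb16 among them, summed to 2.54 to 3.18 CPM in tumour Tconv and 10.9 to 19.8 CPM in TB spleen Tconv, and to 1.22 to 2.18 CPM in tumour Treg and 0.45 to 0.804 CPM in TB spleen Treg. Zbtb16 was lower in tumour Tconv than in TB spleen Tconv (-2.75 ± 0.37), as Cd160 was. In Treg it ran the other way, at 0.955 and 1.70 CPM in tumour Treg and 0.245 and 0.550 CPM in TB spleen Treg (1.73 ± 0.54). The part of such cells in the Cd160 values was not tested.

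Cd244 was near the detection limit throughout. Its counts were 12 and 14 in tumour Treg, 4 and 24 in tumour Tconv, 4 and 7 in TB spleen Treg, 1 and 5 in TB spleen Tconv, 5 and 3 in normal spleen Treg, and 3 and 4 in normal spleen Tconv. One tumour Tconv library lay among the spleen libraries and the other above all 11 remaining libraries, while both tumour Treg libraries lay above all 8 spleen libraries.

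Tumour Tconv against TB spleen Tconv was called for Cd244 (2.20 ± 0.82, adjusted p = 0.0417), yet without tumour Tconv replicate 2 the log2 fold change was 0.62 (adjusted p = 0.668). The call was also lost without TB spleen Tconv replicate 1 (1.57, adjusted p = 0.209) and without TB spleen Tconv replicate 2 (3.56, adjusted p = 0.0505). The call was lost in 14 of 20 alternatives, DESeq2 among them (adjusted p = 0.108). Tumour Tconv replicate 2 held 476 CPM of summed macrophage markers, against 192 CPM in the other tumour Tconv library, and 2B4 is also made by myeloid cells; their part in this value was not tested. No other comparison was called for Cd244, with adjusted p = 0.153 for tumour Treg against TB spleen Treg (1.28 ± 0.74), or 0.0469 when only those groups were fitted.

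**Figure D4:**
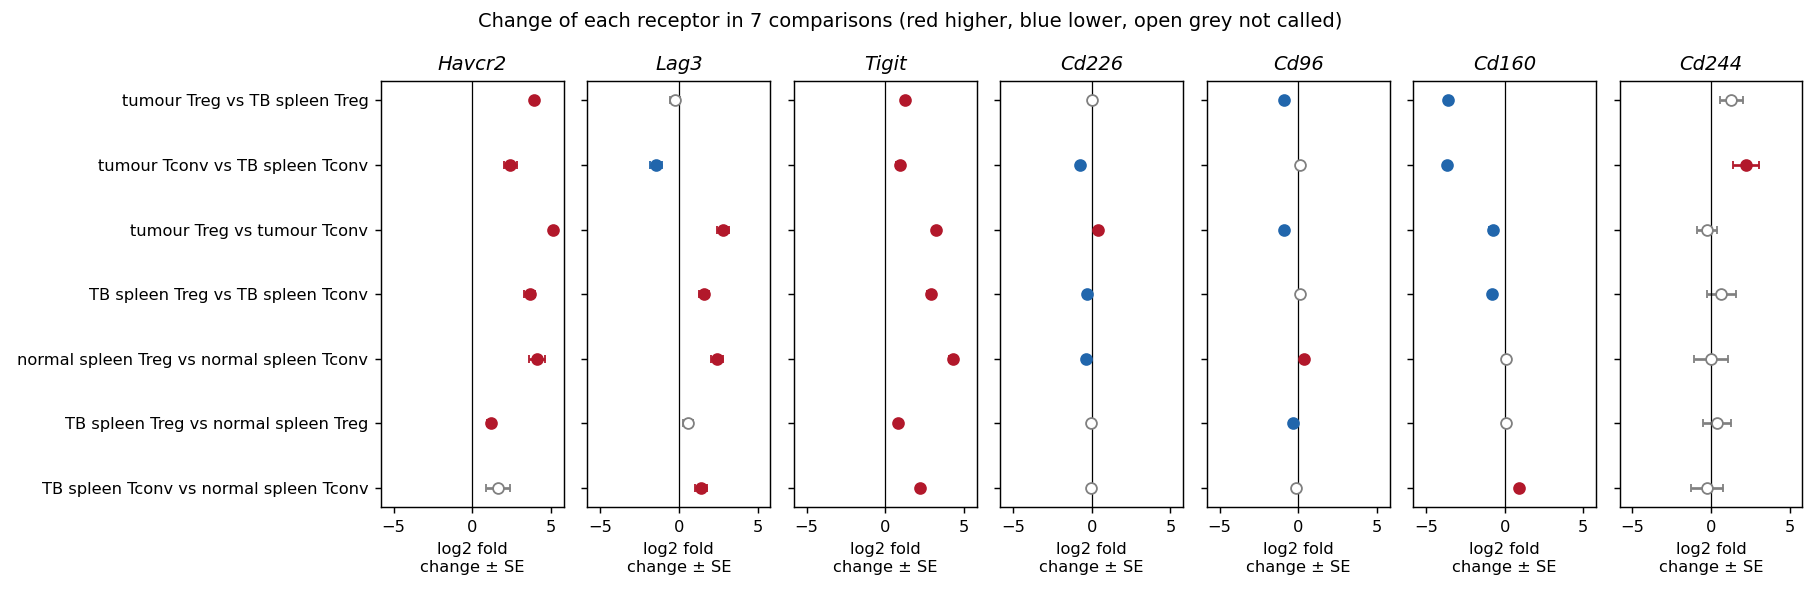
Log2 fold change (point) and SE (bar) of each receptor in the 7 comparisons of 2 groups, first-named group over second, with red for higher, blue for lower and open grey for not called at an adjusted p under 0.05. Havcr2, Lag3 and Tigit lie to the right of 0 in all 3 comparisons of Treg with Tconv, and Cd160 lies near -3.6 in both comparisons of tumour with spleen.

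Counts over the 7 receptors were read against the share of all tested genes called. In tumour Treg against TB spleen Treg, 2 receptors were higher and 2 lower, where 61.4% of all genes were called (32.8% higher and 28.7% lower). In tumour Tconv against TB spleen Tconv, 3 were higher and 3 lower, where 49.1% of genes were called (26.4% higher and 22.8% lower). Cd244, among the 3 higher, reached the count minimum in tumour libraries only, and its call was lost in 14 of 20 alternatives. The median log2 fold change of the 7 in tumour Treg was -0.01, beside 0.02 over all tested genes.

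In tumour Treg against tumour Tconv, 4 receptors were higher and 2 lower (all genes: 53.9% called, 27.2% higher, 26.7% lower). In TB spleen Treg against TB spleen Tconv, 3 were higher and 2 lower (40.3% called, 21% higher, 19.4% lower). In normal spleen Treg against normal spleen Tconv, 4 were higher and 1 lower (40.6% called, 21.8% higher, 18.7% lower). Havcr2, Lag3 and Tigit were among the higher genes in all 3.

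In TB spleen Treg against normal spleen Treg, 2 receptors were higher and 1 lower (15.3% called, 6.8% higher, 8.5% lower), and 0 to 3 of the 7 were called when single libraries were left out. In TB spleen Tconv against normal spleen Tconv, 3 were higher and 0 lower (17.2% called, 9.74% higher, 7.49% lower). The site change differed between cell types for 2 receptors, Cd226 upward and Cd96 downward (24.7% called, 11.7% higher, 13.1% lower). The change with tumour in spleen differed between cell types for 0 of 7 receptors by edgeR's quasi-likelihood test, which called 0.851% of genes (0.222% higher, 0.629% lower). DESeq2 also called 0 of the 7 receptors, and 211 genes in all. Before adjustment, p in the edgeR quasi-likelihood test was 0.000586 for Tigit and 0.00202 for Cd160. The share of all genes with such unadjusted p-values was not counted, so these 2 values have no background beside them. The comparisons share libraries and are therefore not independent of each other.

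Genes of the ligands were also read in the same cells, where 13 of 15 passed the filter. In tumour Treg against TB spleen Treg, 7 were higher and 0 lower, beside 32.8% higher and 28.7% lower of all tested genes. The 7 include Nectin3, which reached the count minimum in tumour libraries only. The MHC class II genes on the list rose in tumour Treg. H2-Eb1 averaged 14.9 ± 0.699 CPM in tumour Treg and 1.56 ± 0.127 CPM in TB spleen Treg (SD, n = 2 each). Its log2 fold change was 3.25 ± 0.44, and H2-Aa and H2-Ab1 rose by 2.49 ± 0.44 and 2.38 ± 0.49 on the log2 scale. Whether the H2-Eb1 transcript gives a ligand of LAG-3 in these mice was not tested. Lgals3, galectin-3, averaged 93.9 ± 4.82 CPM in tumour Treg and 13.7 ± 2.98 CPM in TB spleen Treg (2.78 ± 0.28). Lgals9, the galectin-9 ligand of TIM-3, rose by 0.53 ± 0.09 and Ceacam1 by 1.37 ± 0.54. Ceacam1 was low, with 57 counts over both tumour Treg libraries and 23 over both TB spleen Treg libraries.

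In tumour Tconv against TB spleen Tconv, 6 ligand genes were higher, Nectin3 among them, and 1 lower, beside 26.4% and 22.8% of all tested genes. Pvr averaged 141.1 ± 17.2 CPM in tumour Tconv and 75.0 ± 10.2 CPM in TB spleen Tconv (SD, n = 2 each; 0.91 ± 0.12). Cd48, the ligand of 2B4, averaged 76.0 ± 3.31 CPM in tumour Tconv and 139.3 ± 0.884 CPM in TB spleen Tconv (-0.87 ± 0.08). Neither gene was called between tumour Treg and TB spleen Treg (0.09 ± 0.12 for Pvr and 0.07 ± 0.08 for Cd48), and the difference between cell types was called for both (-0.82 ± 0.17 for Pvr and 0.94 ± 0.11 for Cd48). Lgals3, Ceacam1 and H2-Ab1 rose in tumour Tconv by 3.96 ± 0.36, 1.91 ± 0.55 and 1.24 ± 0.47. Ceacam1 was low and widely spread, at 1.687 ± 0.9501 CPM in tumour Tconv and 0.4408 ± 0.3286 CPM in TB spleen Tconv (SD, n = 2 each). These are 70 and 19 counts over both libraries of each group. All MHC class II genes listed were widely spread in Tconv, H2-Ab1 included. H2-Ab1 averaged 4.925 ± 2.658 CPM in tumour Tconv and 2.076 ± 1.315 CPM in TB spleen Tconv (SD, n = 2 each). H2-Aa averaged 6.26 ± 3.59 CPM in tumour Tconv and 4.22 ± 2.21 CPM in TB spleen Tconv (SD, n = 2 each). H2-Eb1 averaged 4.09 ± 2.36 CPM and 2.78 ± 1.65 CPM in these groups.

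Nectin3 had 101 and 126 counts in tumour Treg and 4 and 3 in TB spleen Treg, with 43 and 135 in tumour Tconv and 0 in both TB spleen Tconv libraries. Nectin2 had 17 and 63 counts in tumour Tconv and 1 and 3 in TB spleen Tconv. Fibroblast markers summed to 212 and 519 CPM in tumour Tconv replicates 1 and 2, and to 0.573 and 0.269 CPM in TB spleen Tconv. The part of such cells in the Nectin2 and Nectin3 counts was not tested. Tnfrsf14 and Hmgb1 were not called in either comparison. Macrophages and dendritic cells express MHC class II and galectin-3 strongly, their marker sums were higher in tumour libraries of both cell types, and their part in these values was not tested. Dendritic cell markers summed to 36.1 to 39.5 CPM in tumour Treg and 5.23 to 6.22 CPM in TB spleen Treg.

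**Figure D5:**
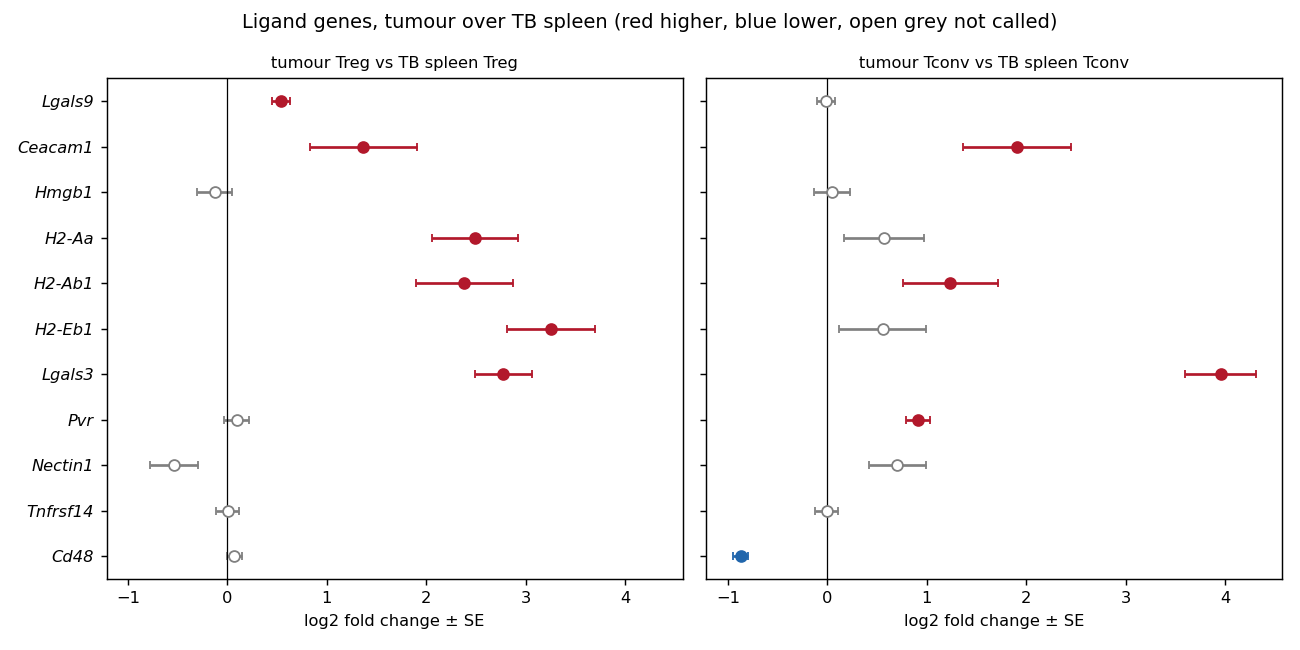
Log2 fold change (point) and SE (bar) of 11 ligand genes in tumour over TB spleen, for Treg (left) and Tconv (right), with red for higher, blue for lower and open grey for not called. Nectin2 and Nectin3 are left out because TB spleen Tconv held 0 to 3 counts. Cd48 is blue and Pvr red in Tconv alone, while Lgals3 is red in both panels.

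Of the 14 signalling partners and sheddases listed, 13 were tested, of which 4 were higher and 5 lower in tumour Treg than in TB spleen Treg, where 61.4% of all genes were called. One of the 4, Sh2d1b1, reached the count minimum in tumour libraries only. Ptpn6, the phosphatase SHP-1, fell by 1.10 ± 0.11 in tumour Treg and by 0.94 ± 0.11 in tumour Tconv, each relative to the TB spleen group. Sh2d1a fell by 0.85 ± 0.08 and Grb2, an adaptor that TIGIT can recruit, rose by 0.63 ± 0.07 in tumour Treg. Adam17, a protease that sheds LAG-3, was higher in tumour Treg (0.31 ± 0.06), and Adam10, the other such protease, was not called (0.09 ± 0.06). In tumour Tconv 2 of the 13 were higher, Sh2d1b1 among them, and 5 lower, where 49.1% of all genes were called.

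Among 10 tested related receptors, 4 were higher and 5 lower in tumour Treg than in TB spleen Treg, where 32.8% of all genes were higher and 28.7% lower. Slamf9, 1 of the 4, reached the count minimum in tumour libraries only. The inhibitory receptor Ctla4 averaged 3064 ± 30.3 CPM in tumour Treg and 701.0 ± 2.87 CPM in TB spleen Treg (SD, n = 2 each; 2.13 ± 0.11), and 305.6 ± 33.4 CPM in tumour Tconv and 50.9 ± 1.42 CPM in TB spleen Tconv (2.59 ± 0.12). Btla, which like CD160 binds HVEM, was lower in tumour Treg (-1.66 ± 0.10) and in tumour Tconv (-0.57 ± 0.10). Slamf7, a relative of 2B4, was lower in both (-2.56 ± 0.26 and -1.49 ± 0.22). In tumour Tconv, 3 of the 10 were higher, Slamf9 among them, and 3 lower, beside 26.4% and 22.8% of all genes.

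Of 14 regulators of these receptors, 8 were higher and 4 lower in tumour Treg than in TB spleen Treg, and 8 higher and 3 lower in tumour Tconv than in TB spleen Tconv. Over all tested genes, 61.4% were called in Treg and 49.1% in Tconv. The orphan nuclear receptor Nr4a1, induced by T cell receptor signals, averaged 1176 ± 39.9 CPM in tumour Treg and 116.6 ± 16.5 CPM in TB spleen Treg (SD, n = 2 each; 3.33 ± 0.13). Nr4a2, Nr4a3 and Nfil3, a factor that induces Havcr2, rose in tumour Treg by 4.09 ± 0.15, 3.56 ± 0.13 and 2.91 ± 0.13, and in tumour Tconv by 5.33 ± 0.18, 4.88 ± 0.15 and 2.81 ± 0.15. In tumour Treg against tumour Tconv, 9 of the 14 were higher and 2 lower, beside 27.2% and 26.7% of all tested genes. Prdm1 (Blimp-1) was among the 9 higher (2.25 ± 0.09), and the 2 lower were Tcf7 (TCF-1) and Eomes (-4.21 ± 0.15 and -3.66 ± 0.23).

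The genes whose log2 CPM ran most like each receptor over the 12 libraries were named from about 8460 genes, as a description. The libraries share group structure, so such values are high for many genes. Tigit ran most like Tnfrsf4 (OX40, r = 0.994), Tnfrsf18 (GITR, r = 0.993) and Cish (r = 0.989), and Havcr2 most like Eif4e3 (r = 0.992), Itga3 (r = 0.99) and Trim30d (r = 0.989). Lag3 ran most like Nsmaf (r = 0.977), Ptpn5 and Gdpd5, and Cd160 most like Cnr2 (r = 0.988), Fam65a and Zfp605. Cd226 ran most like Sit1 (r = 0.955), Cd96 most like Pacsin1 (r = 0.962) and Cd244 most like Pam (r = 0.911). Among the receptors, Havcr2 and Tigit had r = 0.9, Lag3 and Tigit 0.813, and Cd160 and Havcr2 -0.712.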

How the data were processed

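Polyadenylated RNA was sequenced after a stranded Illumina library kit, per the labels' protocols. The authors deposited whole-number counts per gene; STAR, featureCounts and mm10 are named in the submitters' processing notes, and versions, strand setting and counting annotation are not given in the sources used here. Counts were analysed with edgeR 4.0.16 in R 4.3.3: filterByExpr by group (count minimum 10), TMM scaling (factors 0.942 to 1.07), and 1 quasi-likelihood fit of all 12 libraries with 6 group means (6 residual degrees of freedom), giving 7 comparisons and 2 differences between cell types. P-values were adjusted by Benjamini-Hochberg over 13509 genes, with a threshold of 0.05, and SE is the log2 fold change divided by the square root of F. CPM used TMM-scaled totals, and RPKM divided these by merged exon lengths of GENCODE for GRCm38. The fit was tested on simulated counts. DESeq2 1.42.0, limma 3.58.1 (voom), other filters, scalings and thresholds, a replicate block and leaving out each library were tried. Replicates differed beyond counting noise (chi-square per gene 3.56 to 17.0) and were kept apart. Receptors, lists and comparisons were chosen with earlier results of these data known. Named genes were all receptors and ligands, up to 4 passing genes of each other list by size of change, and the 3 most similar genes per receptor with mean log2 CPM of at least 3; Adam10, Adam17 and Klrb1c, Ncr1 and Zbtb16 were named after their values were seen. Pvrig, Trdc and Ly6g were not matched; Nectin1, Nectin2, Nectin3 and Adgre1 were matched by synonym. RefSeq promoters were used for 5 of the 7 receptors.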

Additional observations from a re-analysis of the deposited data

Results flagged for a closer look

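For 2 receptors the difference between tumour and TB spleen was not the same in Treg and Tconv by the interaction test. For Cd226 the change in Treg minus that in Tconv was 0.729 on the log2 scale (SE 0.12, adjusted p = 0.00113), with both tumour Tconv libraries below both TB spleen Tconv libraries and overlapping Treg groups. For Cd96 it was -1.02 (SE 0.12, adjusted p = 0.000149), with both tumour Treg libraries below both TB spleen Treg libraries and overlapping Tconv groups. Both calls held under all 22 alternatives run, at 0.671 to 0.789 for Cd226 and -1.14 to -0.90 for Cd96.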

How the results depend on the processing

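Of 63 changes of single receptors, 34 were called, and 24 of those kept their call under all 22 alternatives run; 0 called ones reversed. Scaling by library size shifted the median of all genes by -0.16 (log2) in tumour Treg against TB spleen Treg and by -0.11 in tumour Tconv against TB spleen Tconv. With 2 libraries a group, leaving out 1 leaves a lone library, assumed to vary like the other groups. Depth limits Cd244 and Havcr2 in spleen Tconv. Causes were not tested.

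In TB spleen Treg against normal spleen Treg, 2066 genes and 3 receptors were called. A fit of only the groups compared called 3670 genes, a threshold of 0.01 left 795 genes and 1 receptor, and leaving out single libraries gave 512 to 2711 genes and 0 to 3 receptors. In TB spleen Tconv against normal spleen Tconv, 2328 genes were called, 932 at a threshold of 0.01 and 751 to 2720 with single libraries left out. For the site change between cell types, 3337 genes and 2 receptors were called; a threshold of 0.01 left 1731 genes, no filter called 4 receptors, and leaving out single libraries gave 2161 to 3679 genes and 2 to 3 receptors. For the change with tumour in spleen between cell types, 115 genes and 0 receptors were called. DESeq2 called 211 genes, no filter 184 genes and 1 receptor, only the groups compared 320 genes and 2 receptors, and a threshold of 0.01 43 genes. Leaving out single libraries gave 42 to 221 genes there and 0 to 2 receptors.

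Same-numbered Treg and Tconv libraries deviated together from their group means with correlations of 0.182 in tumour, 0.163 in TB spleen and 0.122 in normal spleen, and the other comparisons lay between -0.0279 and 0.0687. With 2 pairs each and no label that ties numbers to animals, they were taken to share only a number. In normal spleen the titles and descriptions number libraries differently (descriptions 2 and 3 for Treg, 1 and 3 for Tconv), and the block used the titles. With the replicate block in the edgeR quasi-likelihood fit, Havcr2 and Lag3 were also called for the site change between cell types (adjusted p = 0.00977 and 0.0157). Tigit was called for the change with tumour in spleen between cell types (adjusted p = 0.0202). Havcr2 in TB spleen Tconv against normal spleen Tconv was called as well (1.62, adjusted p = 0.0489). Cd244 in normal spleen Treg against Tconv was 0.0482 with the replicate block.

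Changes that turned sign were all uncalled. Cd226 in tumour Treg against TB spleen Treg became 0.0264 with DESeq2 and with its size factors in edgeR, 0.00731 with a stricter filter, 0.000148 with only the groups compared, and -0.0719 to 0.0467 with single libraries left out. Cd244 in tumour Treg against tumour Tconv became 0.0679 with limma-voom and -0.965 to 1.30 with single libraries left out. With library-size scaling Cd244 in normal spleen Treg against Tconv became 0.056, Cd226 in TB against normal spleen became 0.0371 in Treg and 0.0254 in Tconv. Leaving out single libraries gave -0.354 to 0.271 for Cd244 in normal spleen Treg against Tconv, -0.0743 to 0.762 and -1.62 to 0.369 for Cd244 in TB against normal spleen Treg and Tconv, and -0.156 to 0.101 for Cd226 in TB against normal spleen Treg. For differences between cell types it gave -0.225 to 0.371 (Cd160, site), -2.28 to 0.648 (Cd244, site), -0.96 to 0.125 (Havcr2, spleen) and -0.106 to 0.15 (Cd226, spleen).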
